A study of Mus musculus with 10 samples.

Results

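Pancreas libraries with any floxed allele of the insulin receptor gene Insr were compared with libraries that had none. The members were chosen by the genotype label alone. The 3 libraries labelled Insr Het (Insr w/f, 1 floxed allele) and the 4 labelled Insr KO (Insr f/f, 2 floxed alleles) were pooled as 1 floxed group of 7. The 3 labelled Insr WT (Insr w/w, 0 floxed alleles) were the other group, so the comparison used all 10 libraries of the series. RNA came from a piece of the tail of the pancreas of female mice aged 12 weeks, 1 mouse per library, and each library is named here by its label and mouse number (WT-2404). All 3 groups carried Ptf1aCreER, a Cre recombinase that tamoxifen activates and whose expression follows Ptf1a, a transcription factor gene of acinar cells, and the reporter nTnG, a fluorescent nuclear label that changes colour after Cre has acted. The controls therefore share the Cre and the reporter, and the Cre is not driven in the other cell types of the piece. The protocol counts 4 mice of the WT genotype, of which 1 was not analysed here.

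The insulin receptor is a tyrosine kinase that passes the insulin signal through its substrates Irs1 and Irs2 to the PI3K and AKT kinases, which act on glucose uptake, lipid synthesis and protein synthesis. Acinar cells make and store the digestive enzymes and hold a large rough endoplasmic reticulum. When the pancreas is injured, acinar cells can lose enzyme expression and take on duct-like features, while fibroblasts lay down matrix and macrophages gather. By the title of the series, the study asks whether the receptor in acinar cells acts on enzyme production and inflammation.

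Genes of the extracellular matrix, of macrophages and of injured epithelium were lower in the floxed libraries, and genes of cytosolic ribosomes and of the mitochondrial respiratory chain were higher. Of 13688 genes tested with edgeR's quasi-likelihood test, 1094 (7.99%) passed an adjusted p of 0.05. Of these, 283 (2.07%) were higher and 811 (5.92%) lower in the floxed libraries. The lower genes moved further, with a median log2 fold change of -1.33 against 0.88 for the higher genes, and 597 of the lower but 84 of the higher genes changed at least 2-fold. Without the library WT-2404 the medians of the same genes lay closer, at -0.91 and 0.72. The fold changes of all genes tested had a median of 0.02, with 51.8% of genes above 0 and 48.2% below. In the plot of fold change against p, the lower genes form the broader arm.

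**Figure D1:**
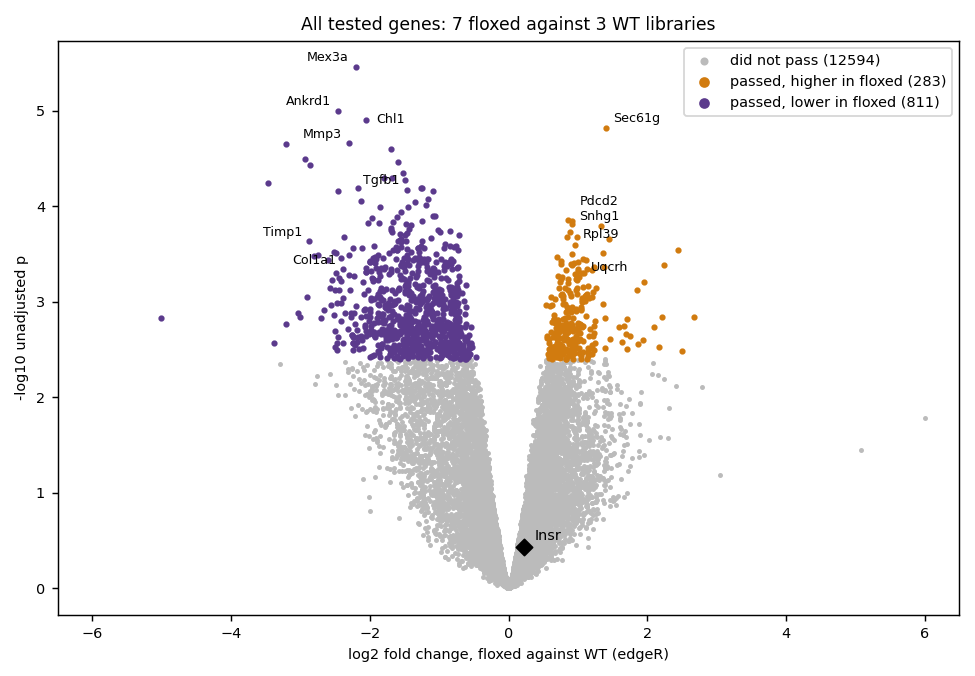
Each point is 1 of the 13688 genes tested, at its log2 fold change in the 7 floxed against the 3 WT libraries (horizontal) and the negative log10 of its unadjusted edgeR p (vertical). Orange points are the 283 genes that passed and were higher, purple points the 811 that passed and were lower, and the black diamond is Insr, at 0.22, which did not pass.

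The calls lie close to the threshold. The adjusted p of the 1094 genes ran only from 0.0360 to 0.0499 in edgeR, while 4169 genes (30.5%) had an unadjusted p under 0.05, 1814 higher and 2355 lower. With Het and KO kept as separate groups and their mean set against WT, edgeR passed 0 genes, with 3868 at an unadjusted p under 0.05 and a smallest adjusted p of 0.0597. DESeq2 passed 2207 genes (791 higher) and limma voom with quality weights 2261 (982 higher), which included 1091 and 979 of the 1094. The count also rested on single libraries. It was 0 without WT-2404 (1789 genes at an unadjusted p under 0.05), without WT-1860 (3248), without Het-2066 (3611), without Het-1770 (3737) and without KO-2070 (3688). It was 1 without KO-2126, 670 without KO-2079, 915 without Het-2042, 1658 without KO-2124 and 3357 without WT-2067. Without WT-2404, all 1094 genes kept their sign and 968 had an unadjusted p under 0.05 in edgeR. The 1094 were picked in a fit that holds all the remaining libraries too, so this is no independent support for the calls.

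**Figure D2:**
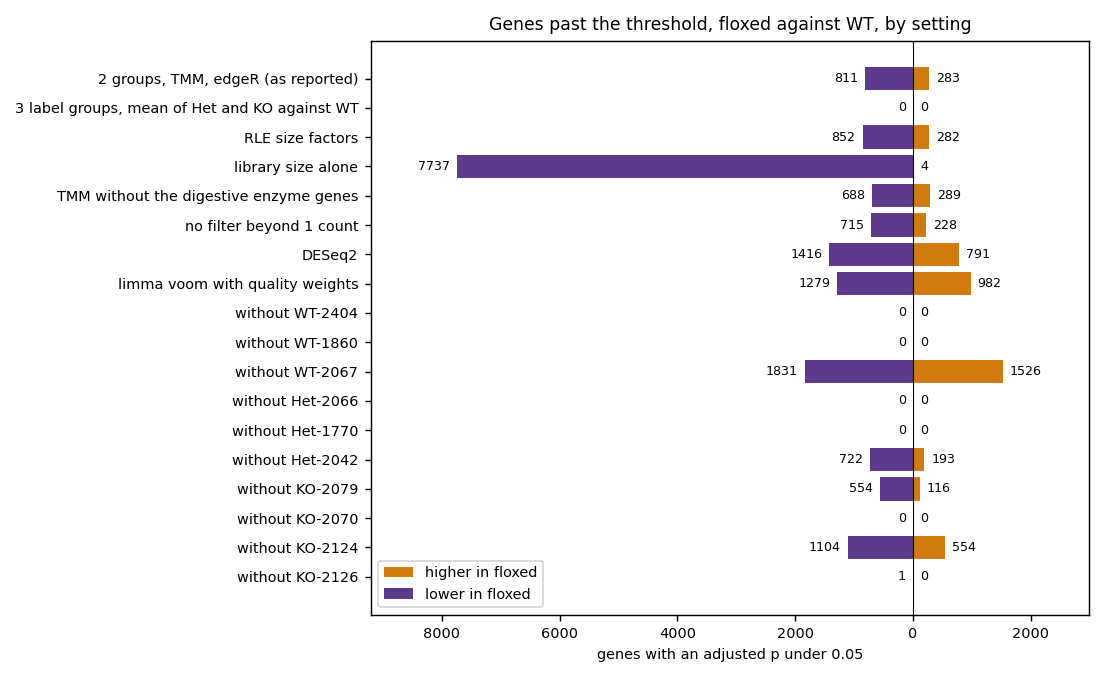
Bars give the number of genes with an adjusted p under 0.05 in floxed against WT libraries, lower genes to the left and higher genes to the right of 0, under each setting or with 1 library left out. The count as reported is 811 lower and 283 higher, and 5 of the 10 settings that leave out a library give 0 in both directions.

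A second view fits no statistical model, but it rests on the same scaling as the edgeR test. It asks whether the 7 floxed and the 3 WT libraries overlapped in counts-per-million (CPM, scaled for library composition). For 546 genes (3.99%) every floxed library was above every WT library, and for 799 (5.84%) every floxed library was below, together 1345 genes (9.83%). Of the genes that passed in edgeR, 228 higher and 460 lower genes were separate in this sense, and 406 were not. Among these separate genes, WT-2067 was the WT library nearest to the floxed group in 201 of 228 higher and 417 of 460 lower genes. The floxed libraries nearest to WT were most often KO-2124 (64 genes) and Het-1770 (53) among the higher genes, and KO-2079 (154) and KO-2124 (134) among the lower.

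The libraries held 11718559 to 19024351 gene counts each. Digestive enzyme genes took 15.9% of these counts in WT-2404, 58.6% in WT-1860, 71.8% in WT-2067 and 62.6% to 77.7% in the floxed libraries, so WT-2404 stood apart. Only some defining markers moved in the same order. From WT-2404 through WT-1860 to WT-2067, the summed acinar markers rose and the macrophage, fibroblast and ductal sums fell. Ptf1a alone was highest in WT-1860 (4.55, 20.6 and 14.5 CPM). The summed islet, T cell, B cell and endothelial markers were also highest there, and the adipocyte, neutrophil and mesothelial sums did not follow the order. The summed level of 4 macrophage markers (Adgre1, Csf1r, Cd68 and C1qa) was 497, 190 and 125 CPM in WT-2404, WT-1860 and WT-2067, and 45.2 to 143 CPM in the floxed libraries. The summed level of 5 acinar markers (Ptf1a, Bhlha15, Cpa1, Cel and Ctrb1) was 18613, 111271 and 238779 CPM in WT and 94909 to 364107 CPM in the floxed libraries, so the labelled tissue was present in all 10 libraries. T cell markers were near 0, at 0.505 to 5.47 CPM for Cd3d, Cd3e and Cd3g together, with Cd3d at 0 in 1 library and Cd3g in 2. In a piece of tissue, fewer cells of a type and less RNA per cell cannot be told apart. The part of these differences in cell content in the results was not tested.

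Insr itself did not separate the groups. It stood at 21.0, 27.8 and 40.5 CPM in the 3 WT libraries, at 43.2, 44.2 and 28.2 CPM in the Het and at 22.7, 33.3, 35.5 and 34.7 CPM in the KO libraries, so the ranges overlapped. The floxed group differed from WT by 0.22 on the log2 scale (SE 0.23, adjusted p = 0.554 in edgeR). Permuting the libraries exactly gave a two-sided p of 0.383, where 3 against 7 libraries allow a smallest p of 0.0167. Insr lies at chr8:3150922-3279649 of the mouse build GRCm38. Counts over the whole gene in a whole piece of tissue cannot show whether single exons were removed in acinar cells, so this gene does not check the labels.

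Igf1r, the closely related receptor for insulin-like growth factor 1, rose in the floxed libraries. Its level was 17.7, 14.5 and 20.7 CPM in WT, 31.6, 22.1 and 21.6 CPM in Het and 24.98, 28.2, 28.5 and 28.4 CPM in KO libraries. The ranges did not overlap, although Het-1770 and Het-2042 were only just above WT-2067. The rise was 0.59 on the log2 scale (SE 0.17, adjusted p = 0.0477 in edgeR, exact permutation p = 0.0167).

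Of 40 genes of insulin and IGF signalling, all tested, 2 passed as higher and 4 as lower (together 15%, beside 7.99% of all genes). The median log2 fold change was 0.16, and it was 0.063 without WT-2404 and 0.11 without KO-2126. Besides Igf1r, the genes that passed were 4 binding proteins of the insulin-like growth factors and Ptpn1, a phosphatase that removes phosphate from the insulin receptor. Igfbp6 rose (0.84, SE 0.22). Igfbp4 (-1.47, and -0.97 without WT-2404), Igfbp3 (-0.99) and Igfbp7 (-0.95) fell, and so did Ptpn1 (-0.93, SE 0.23), from 35.0, 25.8 and 19.6 CPM in WT to a median of 14.9 CPM in the floxed libraries (8.30 to 18.2). The receptor substrates Irs1 (0.23) and Irs2 (0.70) did not pass, with adjusted p of 0.581 and 0.110 in edgeR. Of 23 lipid synthesis genes, all tested, 1 passed as higher and 2 as lower (together 13%, beside 7.99% of all genes). In this list 10 genes were higher and 13 lower, with a median of -0.10. Gpam, which starts glycerolipid synthesis, rose (1.39, SE 0.34), and Hmgcs1 (-0.61, SE 0.14) and Srebf2 (-0.48, SE 0.14) of cholesterol synthesis fell. The fatty acid synthesis gene Fasn had a log2 fold change of -0.20 and did not pass (adjusted p = 0.415 in edgeR).

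**Figure D3:**
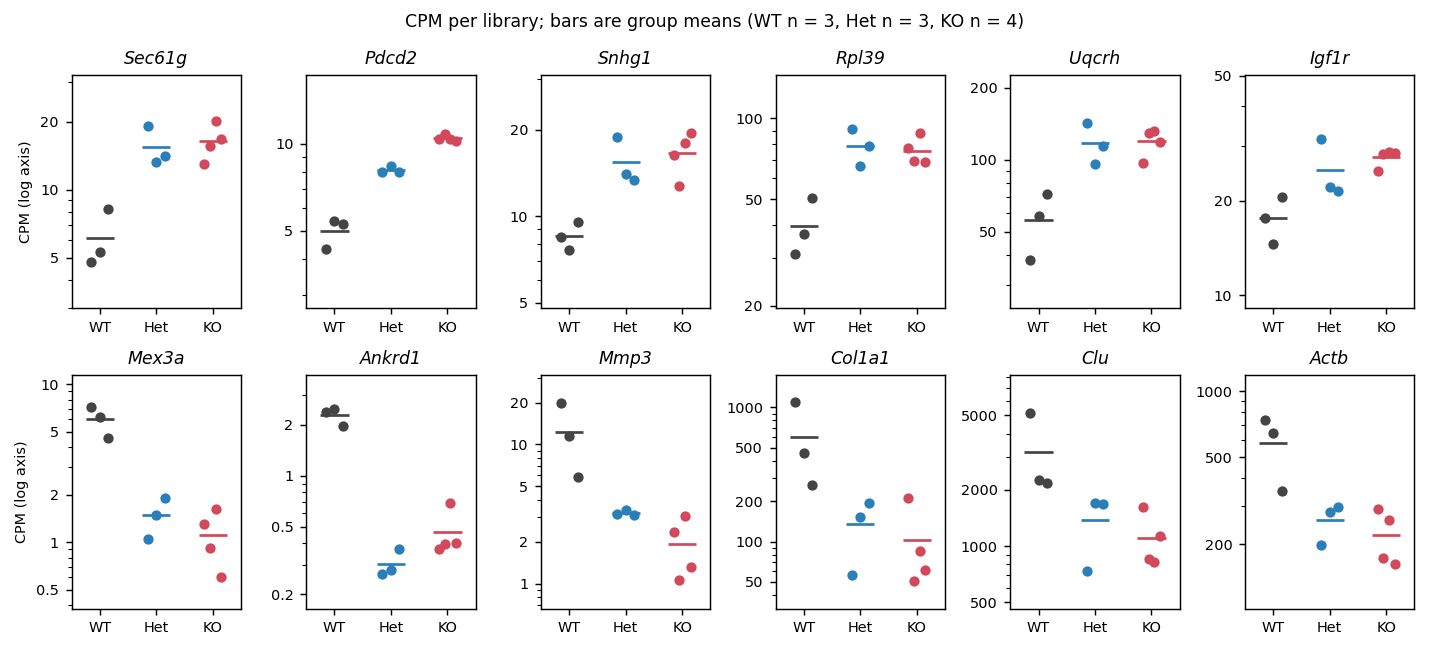
Each point is 1 library's level in CPM on a log axis, by genotype label, and bars are group means (WT n = 3, Het n = 3, KO n = 4). The upper row shows genes that passed as higher in the 7 floxed libraries and the lower row genes that passed as lower; in each of the 12 genes no floxed library overlaps the WT range.

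The higher genes with the smallest p were of mixed function. Sec61g, a subunit of the channel through which new proteins enter the endoplasmic reticulum, stood at 4.78, 5.31 and 8.21 CPM in WT and at 13.0 to 20.2 CPM (median 15.5) in the floxed libraries. The rise of 1.40 (SE 0.22, adjusted p = 0.0360 in edgeR) had the smallest p of all higher genes. All 7 floxed libraries were above the highest WT library, WT-2067. Pdcd2, a factor in assembly of the small ribosomal subunit, stood at 4.33, 5.41 and 5.27 CPM in WT and at 7.98 to 10.8 CPM (median 10.2) in the floxed libraries. Its rise of 0.92 (SE 0.18) was 0.70 in Het and 1.06 in KO libraries against the same WT libraries. The 3 Het libraries (7.98 to 8.39 CPM) lay below the 4 KO libraries (10.2 to 10.8 CPM). That difference, 0.36 on the log2 scale, did not pass in the edgeR test of KO against Het.

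Snhg1, a long non-coding RNA whose introns hold small nucleolar RNAs, stood at 8.51, 7.66 and 9.56 CPM in WT and 12.8 to 19.4 CPM (median 16.3) in the floxed libraries, a change of 0.91 (SE 0.18). It was the 1 of 14 tested host genes of small nucleolar RNAs that passed (7.14%, beside 2.07% of all genes), and the list's median was 0.47. Piga, the enzyme subunit that starts the synthesis of membrane anchors of the GPI type, rose by 1.33 (SE 0.26), with WT libraries at 2.97 to 3.62 CPM and floxed libraries at 5.27 to 10.8 CPM. The genes Mpc2 (0.84), Mcee (0.88) and Tst (1.37) also rose. Mpc2 is a subunit of the carrier that brings pyruvate into mitochondria, Mcee an enzyme of propionate breakdown and Tst a sulfur transferase of mitochondria. Bola2 (0.86), Ndrg2 (0.98) and the netrin receptor gene Unc5a (1.45) completed the higher genes with more than a handful of counts. Asb11 had the largest rise of the named genes (2.44, SE 0.51) at low counts, 0.219 to 0.451 CPM in WT and 1.11 to 3.90 CPM in the floxed libraries, with a lowest count of 4.

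Cytosolic ribosomal protein genes rose together. Of 79 genes, 78 were tested, 76 were higher in the floxed libraries, and 45 (57.7%) passed, all higher, beside 2.07% of all genes. The median log2 fold change was 0.87, and 0.67 without WT-2404. Without scaling for composition it was -0.24, where the median of all genes was -1.24. In 64 of the 78 genes the groups did not overlap, beside 3.99% of all genes. Averaged over the 78 genes, log2 CPM was 6.59, 7.06 and 7.42 in WT-2404, WT-1860 and WT-2067 and 7.77 to 8.03 in the floxed libraries, so every floxed library was above every WT library.

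Rpl39, a small protein at the exit tunnel of the large subunit, had the smallest p on the list. It stood at 31.2, 37.0 and 50.3 CPM in WT and 66.4 to 91.1 CPM (median 77.2) in the floxed libraries, with a log2 fold change of 0.96 (SE 0.20, edgeR adjusted p = 0.0360). Rpl13a, the most abundant higher gene whose groups were separate, stood at 268, 435 and 515 CPM in WT and 661 to 1066 CPM in the floxed libraries (1.02, SE 0.29, adjusted p = 0.0465 in edgeR). Of the other abundant members, Rpl32 rose by 1.24, Rps24 by 1.16, Rpl17 by 1.05 and Rps14 by 0.95. In all of these WT-2404 was the lowest library. Many ribosomal protein genes have near-identical pseudogenes, and how the counting split such reads is not given in the sources used here, so single values are uncertain.

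Subunits of the mitochondrial respiratory chain and ATP synthase were the other higher group. Of 67 genes tested, 67 were higher in the floxed libraries and 16 (23.9%) passed, beside 2.07% of all genes, with a median of 0.53 (0.40 without WT-2404; -0.68 without scaling for composition, where all genes had -1.24). Groups were separate for 24 of the 67, beside 3.99% of all genes. Uqcrh, a hinge protein of complex III, stood at 38.3, 58.3 and 71.7 CPM in WT and at 95.9 to 142 CPM (median 119) in the floxed libraries, a change of 1.08 (SE 0.23). Ndufa6 (0.91), Ndufa1 (1.09), Ndufb2 (0.77) and Ndufb9 (1.08) of complex I rose, as did Cox7a2 (0.73) and Cox4i1 (0.70) of complex IV and Atp5o (0.76) of ATP synthase. WT-2067 was the WT library nearest to the floxed range in each of the first 2, Uqcrh and Ndufa6.

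The genes that feed proteins into the secretory pathway were higher as well, but few passed. Of 26 genes of the translocon and signal peptidase, 24 were higher and 2 (7.69%) passed, Sec61g and Srp9, beside 2.07% of all genes, with a median of 0.45. Srp9, a subunit of the signal recognition particle, stood at 16.5, 39.0 and 44.1 CPM in WT and 59.9 to 83.7 CPM (median 70.4) in the floxed libraries (1.14, SE 0.27). Of 24 genes of chaperones and stress of the endoplasmic reticulum, 19 were higher with a median of 0.53, and 0 passed in edgeR (10 higher and 2 lower at an unadjusted p under 0.05, 4 passing as higher in DESeq2 and 8 in voom). Leaving out WT-2404 lowered that median to 0.33, and leaving out WT-2067 raised it to 0.87. Without scaling for composition both medians turned, to -0.74 and -0.54, above the -1.24 of all genes.

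Digestive enzyme genes were higher in each of 29 tested members, but 0 passed in edgeR (3 at an unadjusted p under 0.05, 1 passing in DESeq2 and 6 in voom). The median log2 fold change of 1.19 dropped to 0.65 when WT-2404 was left out and became 2.09 when WT-2067 was. Amy2a5 had 0 counts in WT and 42 in 3 floxed libraries, and the other floxed libraries had 0 too. Pooled over the floxed group that was 0.448 CPM, at least 14.1-fold above a floor of 3 counts over the WT group. With so few counts, the value says little about the level of this gene. At that bound the list's median was still 1.19, as it must be for a value that stays above the median. Prss2, a trypsinogen gene, stood at 4657, 23893 and 52556 CPM in WT and at 24326 to 70747 CPM in the floxed libraries. WT-2067 lay inside the floxed range and WT-2404 far below it, and the log2 fold change of 0.99 had an SE of 0.70 (adjusted p = 0.354 in edgeR). Acinar regulators and granule proteins gave the same picture, with 18 of 19 genes higher, a median of 1.18 (0.62 without WT-2404, 1.92 without WT-2067) and 0 passing in edgeR (5 higher and 1 lower at an unadjusted p under 0.05, 3 higher in DESeq2, 10 higher in voom). Spink1, a trypsin inhibitor stored with the enzymes, was separate between the groups, at 182, 660.4 and 989 CPM in WT and 1205 to 1830.1 CPM in the floxed libraries, but had an adjusted p of 0.0758 in edgeR.

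**Figure D4:**
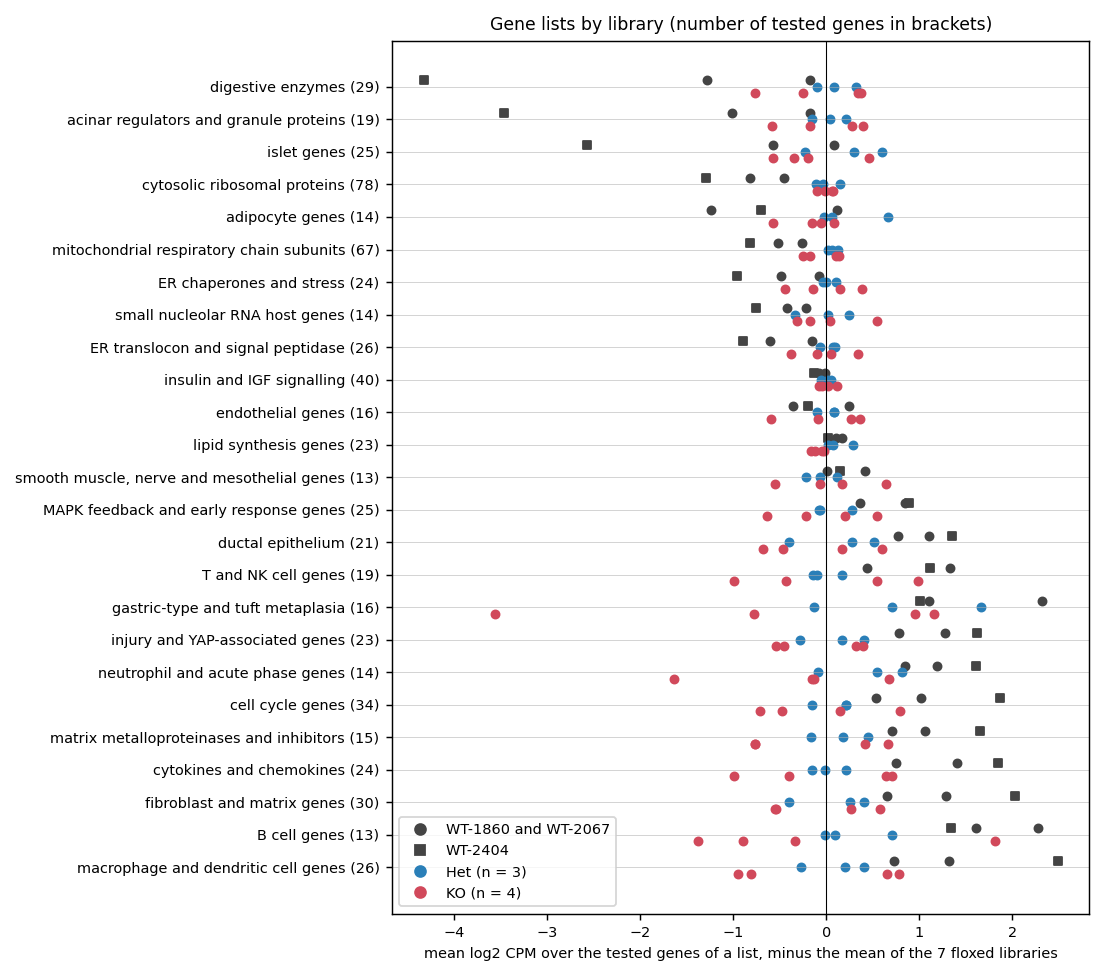
Each row is a gene list with its number of tested genes, and each point a library's mean log2 CPM over the list minus the mean of the 7 floxed libraries. WT-2404 (square) lies farthest from the floxed libraries in most rows. The ribosomal and respiratory chain rows have all 3 WT libraries to the left of 0, as do the enzyme and acinar regulator rows among others. The matrix, injury and macrophage rows have them to the right, as do the ductal and cell cycle rows among others. In the macrophage row KO-2124 lies to the right of WT-2067.

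Mex3a and Ankrd1 had the smallest p of the named lower genes. Mex3a, an RNA-binding protein known from progenitor cells of the gut, stood at 7.17, 6.18 and 4.60 CPM in WT and 0.607 to 1.90 CPM (median 1.30) in the floxed libraries. Its log2 fold change of -2.20 (SE 0.30, edgeR adjusted p = 0.0360) had the smallest p of all genes. The lowest WT library was more than 2-fold above the highest floxed library, although the lowest count was only 6. Ankrd1, a nuclear ankyrin-repeat protein known as a target of the YAP and TEAD transcription factors, stood at 2.39, 2.46 and 1.96 CPM in WT and 0.263 to 0.692 CPM (median 0.371) in the floxed libraries (-2.46, SE 0.36, lowest count 3). Without WT-2404 these changes were -2.03 and -2.41, so they were nearly as large.

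Promoter sequences are shown for 2 lower genes and 2 higher genes, picked from those that passed and whose levels separated the groups. They were taken from RefSeq, build GRCm38.p6, and run 5′ to 3′ on the gene's strand from 250 bases before to 50 bases after the start. Capitals mark matches to 4 motifs searched on both strands: GGAATG (bound by TEAD factors), TGANTCA (AP-1), CCGGAAG (ETS) and TATAAA (the TATA box). Of 27025 promoters of this length, 14.6% held the TEAD letters, 7.93% the AP-1, 9.12% the ETS and 14.2% the TATA letters. The Ankrd1 window (chr19:36119795-36120094, minus strand) holds GGAATG at 210 and 123 bases before the start. The Mmp3 window (chr9:7445572-7445871, plus strand) holds the AP-1 letters at 46 and TATAAA at 7 bases before the annotated start. The Sec61g window (chr11:16508435-16508734, minus strand) holds GGAATG at 68 bases before the start, and the Rpl39 window (chrX:37085173-37085472, minus strand) TATAAA at 96 bases before and the ETS letters, read on the other strand, at base 24 after it. A match to these letters is a description of the sequence and not a measured binding site.
Ankrd1: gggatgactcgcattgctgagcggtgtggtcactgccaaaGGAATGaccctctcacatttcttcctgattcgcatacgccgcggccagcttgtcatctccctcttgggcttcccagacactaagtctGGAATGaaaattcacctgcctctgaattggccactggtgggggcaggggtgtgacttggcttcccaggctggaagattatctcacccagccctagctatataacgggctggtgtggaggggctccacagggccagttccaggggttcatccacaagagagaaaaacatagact
Mmp3: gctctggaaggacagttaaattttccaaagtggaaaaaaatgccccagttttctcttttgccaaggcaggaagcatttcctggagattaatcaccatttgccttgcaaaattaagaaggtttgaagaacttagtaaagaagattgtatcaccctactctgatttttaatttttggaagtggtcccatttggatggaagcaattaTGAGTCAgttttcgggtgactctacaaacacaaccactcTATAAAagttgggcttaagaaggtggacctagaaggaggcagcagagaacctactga
Sec61g: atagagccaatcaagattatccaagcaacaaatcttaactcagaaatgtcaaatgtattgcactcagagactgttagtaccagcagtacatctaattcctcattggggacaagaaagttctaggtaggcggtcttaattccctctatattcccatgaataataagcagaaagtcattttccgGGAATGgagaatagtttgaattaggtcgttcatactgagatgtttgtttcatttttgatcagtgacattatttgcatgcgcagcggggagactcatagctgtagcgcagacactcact
Rpl39: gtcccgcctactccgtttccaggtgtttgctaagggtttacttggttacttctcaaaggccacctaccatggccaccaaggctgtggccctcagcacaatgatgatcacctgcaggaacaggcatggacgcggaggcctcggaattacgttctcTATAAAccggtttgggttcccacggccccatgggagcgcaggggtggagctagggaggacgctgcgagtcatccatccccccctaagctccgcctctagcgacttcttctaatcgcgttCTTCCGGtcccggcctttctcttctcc

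Of 23 tested injury and YAP-associated genes, 21 were lower in the floxed libraries and 12 passed, all lower, beside 5.92% of all genes. The median was -1.25, and -0.91 without WT-2404. Cd44, a hyaluronan receptor, stood at 83.6, 60.8 and 36.3 CPM in WT and 6.46 to 28.9 CPM (median 13.8) in the floxed libraries (-1.89, SE 0.42). Clu, a secreted chaperone and the most abundant lower gene whose groups were separate, stood at 5151, 2266 and 2185 CPM in WT and 740.0 to 1707 CPM in the floxed libraries (-1.39, SE 0.38, and -0.85 without WT-2404). Il33, an alarm cytokine of epithelium (-1.25), Anxa2 (-1.64), S100a11 (-1.49), Tmsb10 (-1.45), Plaur (-1.66) and Hmga2 (-2.91) also fell. In KO-2124 Ankrd1 was highest of the floxed libraries, at 0.692 CPM against at most 0.404 CPM in the other 6.

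Duct genes fell in part. Of 21 tested, 18 were lower and 8 (38.1%) passed in edgeR, all lower, beside 5.92% of all genes. The median was -0.82. DESeq2 passed 10 of the 21 as lower and voom 5, beside 1416 and 1279 of all genes. Of the 8 that passed in edgeR, the tight junction gene Cldn4 fell most (-1.91, SE 0.39). It went from 39.9, 32.2 and 15.9 CPM in WT to 3.54 to 14.7 CPM in the floxed libraries. Krt7 (-1.71), Spp1 (-1.51), Aqp5 (-1.75), Epcam (-0.97), Ehf (-0.84), Krt8 (-0.79) and the duct transcription factor Sox9 (-0.80) also passed. Without WT-2404 Spp1 was at -1.0 and Ehf at -0.52. The duct keratin gene Krt19 had a log2 fold change of -1.30 with an adjusted p of 0.0630 in edgeR. Of 16 tested genes of gastric-type and tuft cell metaplasia, 15 were lower and 1 passed, the transcription factor gene Onecut3 (-2.32, SE 0.59). That share of 6.25% is near the 5.92% of all genes that passed as lower.

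Fibroblast and matrix genes had the largest share of passing members of the 25 lists in edgeR. Of 30 genes, all tested, 30 were lower and 21 (70.0%) passed in edgeR, beside 5.92% of all genes. The median was -1.41 (-0.98 without WT-2404). DESeq2 passed 22 of the 30 as lower but voom only 12, beside 1416 and 1279 of all genes. Col1a1, a chain of type I collagen, stood at 1093, 458 and 266 CPM in WT and 50.5 to 211 CPM (median 84.4) in the floxed libraries (-2.39, SE 0.50). Col3a1 stood at 1923, 655 and 473 CPM in WT and 123 to 425 CPM (median 230.3) in the floxed libraries (-2.05, SE 0.45). Fibronectin (Fn1) was at 1009, 440.2 and 240.3 CPM in WT and 57.1 to 224 CPM in the floxed libraries (-2.09, SE 0.48). In each of these WT-2404 was more than 2-fold above the other WT libraries, and the change without it was -1.62, -1.18 and -1.34. Sparc (-1.62), Lum (-1.61), Bgn (-1.80), Thy1 (-1.60), Postn (-1.98) and the collagen cross-linking enzyme Lox (-2.22) also fell. Without WT-2404 Sparc was at -0.99 and Lox at -1.29.

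Not every fibroblast marker separated the groups. Decorin (Dcn) stood at 159 to 215 CPM in WT and 158 to 237 CPM in the floxed libraries, and the receptor gene Pdgfra at 15.7 to 32.8 and 11.9 to 24.3 CPM, so both overlapped. The summed level of the 5 fibroblast markers, led by the collagens, was 3283, 1320.2 and 925 CPM in WT and 360.4 to 837 CPM in the floxed libraries. Whether the change of the matrix genes exceeded that of Dcn was not tested.

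Of 15 tested matrix metalloproteinases and their inhibitors, 13 were lower and 6 (40%) passed, all lower, beside 5.92% of all genes, with a median of -1.28 (-0.82 without WT-2404). Mmp3, a protease that cuts many matrix proteins, stood at 19.8, 11.4 and 5.88 CPM in WT and 1.05 to 3.36 CPM (median 3.04) in the floxed libraries, with a log2 fold change of -2.29 (SE 0.36, edgeR adjusted p = 0.0360). Timp1, an inhibitor of these proteases, stood at 53.8, 28.6 and 9.44 CPM in WT and 0.659 to 7.61 CPM in the floxed libraries (-2.87, SE 0.54). The proteases Mmp2 (-1.38), Mmp14 (-1.44) and Mmp19 (-1.55) fell beside their inhibitor, and without WT-2404 Mmp2 was at -0.91 and Mmp19 at -0.77. Adam12, a membrane-bound metalloproteinase outside this list, fell by 2.87 on the log2 scale, from 11.6, 4.38 and 2.88 CPM to 0.264 to 1.86 CPM.

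Macrophage and dendritic cell genes were lower in 26 of 26 members, with a median of -1.54. In edgeR 18 (69.2%) passed, beside 5.92% of all genes. DESeq2 passed 23 of the 26 as lower but voom only 7, beside 1416 and 1279 of all genes. Groups were separate for 3 of the 26, beside 5.84% of all genes, and WT-2067 lay close to the upper floxed libraries. Ccr2, the chemokine receptor of monocytes, stood at 62.0, 29.2 and 23.3 CPM in WT and 3.74 to 18.5 CPM in the floxed libraries (-1.84, SE 0.38). The complement gene C1qa stood at 231, 89.6 and 55.6 CPM in WT and 20.2 to 61.8 CPM in the floxed libraries, with KO-2124 above WT-2067 (-1.70, SE 0.43, and -0.89 without WT-2404). Without WT-2404 the list's median was -0.88 and 8 of the 26 genes had an unadjusted p under 0.05. Npl, an enzyme of sialic acid breakdown among the named genes, showed the same library order, at 10.1, 2.35 and 1.53 CPM in WT and 0.303 to 0.922 CPM in the floxed libraries, and its change of -3.21 was -1.92 without WT-2404.

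Cytokine and chemokine genes were lower in 24 of 24 tested members and 8 (33.3%) passed, beside 5.92% of all genes, with a median of -1.35 (-0.97 without WT-2404). Tgfb1, which drives matrix production in fibroblasts, stood at 30.3, 21.1 and 14.6 CPM in WT and 5.16 to 11.1 CPM (median 6.46) in the floxed libraries (-1.47, SE 0.26). Cxcl14 (-1.55), Il1rn (-1.92), Ccl6 (-2.19), Ccl9 (-2.0), Cxcl5 (-1.80), Cx3cl1 (-1.02) and Cxcl16 (-1.65) also fell. Without WT-2404 Ccl6 was at -1.19 and Ccl9 at -1.12. Of 14 tested neutrophil and acute phase genes 3 (21.4%) passed, Lcn2 (-2.61), Hp (-2.23) and Csf3r (-1.68), of which Lcn2 was at -1.65 and Hp at -1.06 without WT-2404. The neutrophil genes S100a8 and S100a9 were at 81.6 CPM together in WT-2404 and at 0.264 to 8.53 CPM in the other 9 libraries. Lymphocyte genes were at low levels. In the T and NK cell list 17 of 19 were lower and 0 passed in edgeR (5 at an unadjusted p under 0.05, 2 passing in DESeq2 and 5 in voom), and in the B cell list 13 of 13 were lower and 1 passed, Jchain (-1.70, and -1.12 without WT-2404). That share of 7.69% is near the 5.92% of all genes.

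Cell cycle genes were lower in 33 of 34 members and 10 (29.4%) passed, beside 5.92% of all genes, with a median of -1.28 that was -0.64 without WT-2404. The replication helicase genes Mcm5 (-1.95), Mcm3 (-1.60), Mcm4 (-1.31) and Mcm6 (-1.24) fell, and so did the mitotic genes Top2a (-1.77), Plk1 (-1.94), Cdc20 (-1.87) and Ccna2 (-1.76). Without WT-2404 Mcm5 was at -1.19, Mcm3 at -1.05, Mcm6 at -0.79, Top2a at -1.06, Plk1 at -1.23, Cdc20 at -1.07 and Ccna2 at -0.96. Cdkn1a, an inhibitor of the cycle that is induced by stress, moved in the same direction (-1.55, SE 0.31). It stood at 51.1, 33.4 and 16.1 CPM in WT and 6.93 to 17.1 CPM in the floxed libraries, so WT-2067 overlapped the floxed range. Of 25 tested genes of MAPK feedback and the early response, 19 were lower and 5 (20%) passed, all lower, beside 5.92% of all genes. The list's median was -0.42, and -0.31 without WT-2404. The 5 that passed were the EGF receptor ligands Hbegf (-1.17) and Btc (-1.30), and Phlda1 (-1.36), Ier3 (-1.14) and Junb (-1.20).

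The rest of the named lower genes were of mixed function. Actb, cytoplasmic beta-actin and often used as a reference gene, fell by 1.29 on the log2 scale (SE 0.28), from 743, 643 and 349 CPM in WT to 163 to 298 CPM (median 257) in the floxed libraries. The lysosomal gene Psap fell by 1.20 (SE 0.31), and by 0.61 without WT-2404, and Tubb6, a beta-tubulin, by 1.70 (SE 0.27). Chl1, a cell adhesion molecule of nerve (-2.06), Sorcs2, a sorting receptor (-1.80), S1pr3, a sphingosine-1-phosphate receptor (-1.52), Fam167a (-1.59) and the endoplasmic reticulum protein Ckap4 (-1.68) also fell. Dio3, which inactivates thyroid hormone, fell by 2.94 (SE 0.49), from 6.57, 4.21 and 2.70 CPM in WT to 0.132 to 1.06 CPM, with a lowest count of 1.

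In the islet, adipocyte, endothelial and smooth muscle lists, 1 gene passed. Islet genes were higher in 24 of 25 tested members with a median of 0.93 (0.40 without WT-2404, 1.64 without WT-1860), but 0 passed as higher in edgeR, DESeq2 or voom. The 1 islet gene at an unadjusted p under 0.05 in edgeR and the 1 passing in DESeq2 were in the lower direction. The summed level of Ins1, Ins2, Gcg and Sst was 410.3, 5065 and 2692 CPM in WT and 3192 to 8801 CPM in the floxed libraries. Adipocyte genes were higher in 13 of 14 members with a median of 0.67, and 0 passed in edgeR (3 at an unadjusted p under 0.05, 0 in DESeq2 and 2 in voom); this median was 0.35 without WT-1860, 1.03 without WT-2067 and -0.43 without scaling for composition. Of 16 endothelial genes 1 (6.25%) passed, Kdr (0.71, SE 0.20), beside 2.07% of all genes. Their median of 0.14 was 0.084 without WT-2067, 0.23 without KO-2126 and 0.37 without WT-1860. Of 13 tested smooth muscle, nerve and mesothelial genes 0 passed in edgeR (2 higher and 3 lower at an unadjusted p under 0.05, 2 and 2 passing in DESeq2, 0 and 3 in voom). Their median of -0.23 was -0.11 without WT-1860, -0.36 without WT-2067 and -0.53 without KO-2124.

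Within the floxed group, no gene passed the test of KO against Het libraries. KO against Het passed 0 of 13688 genes (0%) in edgeR, DESeq2 and voom, with 103 genes at an unadjusted p under 0.05 in edgeR. That does not show that the 2 labels act alike. Set side by side against the same 3 WT libraries, the median of the ribosomal list was 0.87 in Het and 0.86 in KO, of the respiratory chain list 0.56 and 0.48, and of the fibroblast and matrix list -1.38 and -1.40. Mmp3 was at -1.95 in Het and -2.61 in KO, Ankrd1 at -2.86 and -2.23 and Mex3a at -2.0 and -2.37.

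Genes that passed as higher were shorter than the rest. Their median exonic length in the GENCODE M21 annotation of GRCm38 was 2532 bases, against 4263 for the lower genes and 4462 for all genes tested, over the 96.6% of genes with a length. Protein-coding genes under 1000 bases outside the ribosomal and respiratory chain lists (212 genes) had a median log2 fold change of 0.31 (0.23 without WT-2404). For those of 4000 bases and over outside the same lists (7380 genes) it was -0.01 (0.003 without WT-2404). Of these short genes 6.13% passed as higher and 5.19% as lower, and of the long genes 0.935% and 5.73%. The groups overlapped in the median level of the short genes, as log2 of CPM plus 1. It was 2.71 in WT-1860 and 2.74 in WT-2067 but 2.68 in KO-2070, and lowest in WT-2404 (2.54). The part of length in the higher lists was not tested.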

How the data were processed

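RNA sequencing counts of 10 pancreas pieces were analysed. The authors deposited raw counts per gene symbol, 1 column per mouse, whose totals differ between libraries. Per the submitters' processing notes, DRAGEN, STAR and Cufflinks and the build mm10 were used; their roles, the counting settings and the use of strand are not given in the sources used here. A further part of the genotype, shared by all groups, and 1 gene that met the naming rule are not reported here.

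The 2 rows that name no gene (reads outside genes, 2.59% to 8.71% of counts, and ambiguous reads, 0.101% to 0.584%) were left out. Of 24421 genes, 6269 had no count, and 13688 passed filterByExpr (minimum count 10). Genes were tested with edgeR 4.0.16 (glmQLFit and glmQLFTest, robust, TMM scaling, no covariates) and Benjamini-Hochberg adjustment at 0.05, in R 4.3.3. DESeq2 1.42.0 and limma 3.58.1 (voom with quality weights) were alternatives. The fits were also run on simulated counts with the same spread for every gene and no library of different composition. That run does not bear on how the calls here depend on single libraries. CPM use effective library sizes after TMM, with a prior count of 2 on the log2 scale. Each library counted as 1 replicate, since no pair within a group agreed within sampling noise (chi-square per degree of freedom of at least 19.9). P-values measure the spread between mice.

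Genes were named where the groups did not overlap, in each direction the 12 with the smallest p and the 6 with the highest mean CPM among those past the threshold, leaving out predicted genes; up to 4 members of a list with the smallest p, and further members past the threshold, were also named. The 25 gene lists (702 genes, 0 in more than 1 list) and the comparison were chosen with earlier results of these data known. Length classes, motifs and gene families by symbol were chosen after values were seen, as were the list members named beyond the first 4.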

Additional observations from a re-analysis of the deposited data

Results flagged for a closer look

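Of 67 measures over the 7 floxed libraries, 9 set 1 library apart from the 6 others by the gap ratio of Dixon, and about 3.35 would do so by chance. KO-2124 stood apart in 5 of them. Its reads outside genes were 8.71% of counts against at most 5.14% in the other floxed libraries, its ambiguous reads 0.295% against at most 0.173%, and its TMM factor 1.36 against at most 0.889. It was also highest in Ankrd1, at 0.692 CPM against at most 0.404, and in Npl, at 0.922 CPM against at most 0.526. Both stayed below the WT range. KO-2079 was highest in Ndrg2, at 35.9 CPM against at most 26.1, and in Chl1, at 3.15 CPM against at most 1.89. Het-2042 was highest in S1pr3, at 2.64 CPM against at most 1.86. KO-2070 was lowest in the neutrophil and acute phase list, with a mean log2 CPM of 3.14 against at least 4.63.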

How the results depend on the processing

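The count of 1094 genes became 0 with 3 label groups, 2207 with DESeq2, 2261 with voom and 7741 (4 higher, 7737 lower) by library size alone, and ran from 0 to 3357 when single libraries were left out. It was 1134 with RLE size factors, 977 with enzyme genes removed and 943 without the filter. By library size alone, where all genes had a median of -1.24, the sign turned for Insr (-0.85), Bola2 (-0.38), Pdcd2 (-0.27), Snhg1 (-0.32), Mcee (-0.31), Ndrg2 (-0.17), Mpc2 (-0.35), Rpl39 (-0.11) and Rps14 (-0.14). The cause of these moves was not tested. The 35 named genes kept their sign under every other setting, but 35 of 35 missed the threshold with 3 label groups and without WT-2404, WT-1860, Het-1770, Het-2066 or KO-2070. All 25 list medians kept their sign whichever library was left out. KO against Het stayed at 0 genes throughout. Depth limits the named genes with the fewest counts, since Dio3, Adam12, Ankrd1, Npl and Asb11 had lowest counts of 1, 2, 3, 3 and 4. No paired analysis was possible because the groups share no replicate numbers.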

Other observations

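Gene families grouped by symbol, chosen after their values were seen, gave values beyond the lists, beside 2.07% of all genes that passed as higher and 5.92% as lower. Of 77 tested genes of mitochondrial ribosomal proteins 7 passed, all higher, with a median log2 fold change of 0.38, and Mrpl15 rose by 0.92 (SE 0.19, edgeR). Of 60 translation initiation and elongation factor genes 5 passed, all higher, with a median of 0.39, and Eef1b2 rose by 1.05. Of 12 tubulin genes 8 passed, all lower, with a median of -0.92 (-0.59 without WT-2404), and of 13 cathepsin genes of the lysosome 6 passed, all lower, with a median of -1.26 (-0.64 without WT-2404). Of 35 collagen genes 15 passed as lower and 1 as higher, Col4a4 (1.95, SE 0.44), a chain of basement membrane collagen. Of 5 lysyl oxidase genes 4 passed, all lower. Of 26 integrin genes 7 passed, all lower. Of 38 proteasome subunit genes 1 passed, Psmd6 (0.93), a share near that of all genes, and the median was 0.03 (0.15 without WT-2404).

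The named genes Piga and Asb11 lie next to each other on chromosome X, with 3036 bases and 0 annotated genes between them, and both rose in the floxed libraries (1.33 and 2.44). Their floxed libraries were not in the same order, since Piga was highest in KO-2124 (10.8 CPM) and Asb11 in KO-2079 (3.90 CPM).

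Ctrc, the gene of chymotrypsin C, fell into separate levels that the genotype labels do not follow. It stood at 9014 CPM in Het-2066, 11509.9 CPM in KO-2070 and 4704 CPM in KO-2124, and at 1.47 to 252 CPM in the other 7 libraries, which include all 3 WT libraries. Its log2 fold change of 5.08 (SE 2.12) did not pass (edgeR adjusted p = 0.137).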
